A study of Rattus norvegicus with 6 samples.

Results

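Ketone body metabolism was followed here through 7 genes chosen by name: Bdh1, Bdh2, Oxct1, Oxct2a, Oxct2b, Acat1 and Aacs. The rule took every gene of the deposited expression table whose symbol equals one of these names, and it found 5 of them among 35291 genes. The germ cell genes Oxct2a and Oxct2b had no matching symbol, so their expression was not analysed here and only their promoters were read. The expression values came from RNA-Seq of whole testis of 6 rats of the outbred Sprague-Dawley strain. The diabetic group was 3 rats with STZ-induced diabetes, and the normal group was 3 rats without it. Streptozotocin (STZ) destroys the insulin-producing beta cells of the pancreas, and the testes were taken 8 weeks after it was injected. By the methods of the study, a high-fat diet came before the injection, and control rats were injected with citrate buffer. Those methods do not state whether the control rats were fed the same diet, so a difference of diet and one of STZ cannot be told apart. The rats were adult males by the text of the study, and their age is not given in the sources used here. Values are FPKM, fragments scaled to gene length and library size, so that levels can be compared between genes.

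Ketone bodies are small acids that carry the energy of fat from the liver to other tissues, and they rise in the blood when insulin is lacking. No ketone body level of these rats is given in the sources used here. Liver mitochondria make acetoacetate, and BDH1 reduces it to beta-hydroxybutyrate. In tissues that burn ketone bodies BDH1 runs in reverse, OXCT1 moves coenzyme A from succinyl-CoA onto acetoacetate, and the thiolase ACAT1 splits acetoacetyl-CoA into acetyl-CoA for the citric acid cycle. AACS activates acetoacetate in the cytosol, where it feeds the synthesis of lipids. BDH2 is a cytosolic relative of BDH1, and OXCT2 is the form of the CoA transferase found in sperm cells.

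Of the 5 ketone body genes with values, Oxct1, Acat1 and Aacs had diabetic rats below all normal rats, whereas the groups of Bdh1 and of the scarce Bdh2 overlapped. The mean FPKM of Oxct1 was 32.4% lower, that of Acat1 22.1% lower and that of Aacs 20.1% lower in the diabetic rats. Diabetic rats lay below every normal rat in these 3 of the 4 genes tested, and in 8.42% of all genes tested. The mean of Bdh2 was 60.3% lower, and that of Bdh1 was 8.64 FPKM in diabetic and 8.56 FPKM in normal rats. The difference did not pass the adjusted test for any of the 4 ketone body genes tested.

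To show what the genes share apart from their function, the promoters were read from RefSeq (assembly GRCr8), which held 1 for each of the 7 genes. Each promoter spans 250 bases before to 50 bases after the annotated start. The promoters of Oxct1, the tested gene with the lowest log2 fold change, of Acat1 and of Bdh1, the tested gene whose groups overlapped, are shown 5′ to 3′ on the strand of the gene. Oxct1 lies on the plus strand at chr2:54963714-54964013, Acat1 on the minus strand at chr8:62904993-62905292 and Bdh1 on the minus strand at chr11:82842587-82842886. Capitals mark TGACG, the core of the cAMP response element, on either strand.

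Oxct1: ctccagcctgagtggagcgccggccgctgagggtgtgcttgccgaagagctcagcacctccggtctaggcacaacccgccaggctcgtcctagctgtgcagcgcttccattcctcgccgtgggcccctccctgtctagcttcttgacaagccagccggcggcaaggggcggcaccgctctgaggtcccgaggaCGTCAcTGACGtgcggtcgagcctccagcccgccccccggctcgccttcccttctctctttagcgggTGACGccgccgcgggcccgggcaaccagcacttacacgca

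Acat1: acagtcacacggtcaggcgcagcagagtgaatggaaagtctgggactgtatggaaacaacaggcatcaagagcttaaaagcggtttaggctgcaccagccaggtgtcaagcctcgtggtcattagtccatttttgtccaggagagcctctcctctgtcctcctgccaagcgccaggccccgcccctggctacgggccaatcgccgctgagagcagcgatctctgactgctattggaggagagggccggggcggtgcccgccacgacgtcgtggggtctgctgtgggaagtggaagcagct

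Bdh1: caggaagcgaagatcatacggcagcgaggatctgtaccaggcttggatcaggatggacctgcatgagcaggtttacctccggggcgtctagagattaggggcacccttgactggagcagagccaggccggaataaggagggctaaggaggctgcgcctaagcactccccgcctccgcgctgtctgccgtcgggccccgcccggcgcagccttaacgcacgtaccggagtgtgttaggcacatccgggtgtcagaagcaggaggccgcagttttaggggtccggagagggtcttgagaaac

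TGACG was present 3 times in the promoter of Oxct1 and 1 time each in those of Oxct2a and Oxct2b, and it was not found in the promoters of Bdh1, Bdh2, Acat1 and Aacs. Of all 33469 promoters in the table, 21.2% held it. GGGCGG, the GC box, was present 2 times each in the promoters of Oxct1 and Acat1 and 1 time in that of Bdh1, and 33.1% of all promoters held it. CCAAT was present 2 times in the promoter of Acat1 and in none of the other 6, against 37.5% of all promoters. Neither AAGGTCA, the extended nuclear receptor site, nor CACGTG, the E-box, was found in any of the 7, and 4.61% and 6.42% of all promoters held them. The motifs were searched on both strands, and 0 pairs of matches overlapped in any of the 7 promoters. The GC content was 69.0% for Oxct1, 66.0% for Aacs, 62.0% for Bdh1, 60.0% for Acat1 and 49.0% for Bdh2, against a median of 51.7% over all promoters. The promoters of Oxct2a and Oxct2b matched each other at 290 of 296 aligned bases, or 98.0%.

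Among the 5 genes with values, the order of the levels was Bdh1, Acat1, Oxct1, Aacs and Bdh2. As means of all 6 rats they were listed at 8.60, 6.88, 3.18, 2.31 and 0.442 FPKM. In the normal rats Bdh1 and Acat1 overlapped, at 7.65 to 9.95 FPKM and 6.86 to 9.29 FPKM. In the diabetic rats they did not, at 8.30 to 9.15 FPKM and 5.73 to 6.43 FPKM. Oxct1 and Aacs overlapped in the diabetic rats, at 2.14 to 2.96 FPKM and 1.73 to 2.30 FPKM. Bdh2 lay below the other 4 genes in every rat. Bdh1 was expressed above 63.7% of the 20338 genes tested and Aacs above 32.4% of them, so none of these genes was among the most abundant of the testis.

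**Figure D1:**
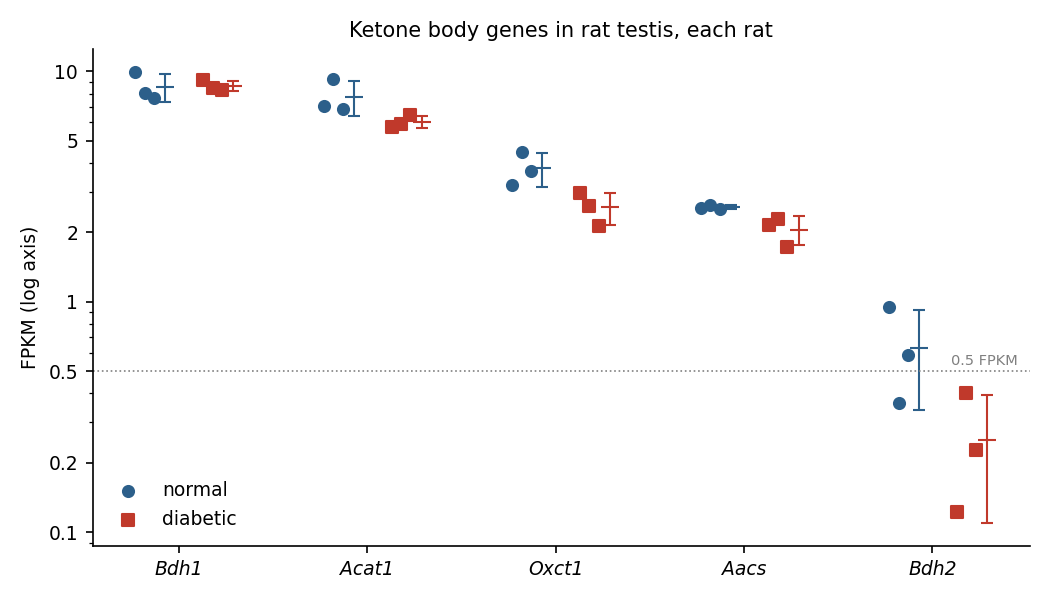
Level of each ketone body gene in each rat, in FPKM on a log axis. Circles are normal and squares diabetic rats, the bars show the mean ± SD of 3 rats, and the dotted line is the 0.5 FPKM that a gene had to reach on average to be tested. The squares of Acat1, Oxct1 and Aacs lie below all circles of the same gene, and those of Bdh1 lie among them.

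The test was limma, two-sided, on log2(FPKM + 0.1), and 20338 genes entered it because they reached 0.5 FPKM on average. Log2 fold changes are diabetic minus normal on this scale, where the 0.1 makes the change of a scarce gene look smaller. A gene was called at a Benjamini-Hochberg adjusted p-value below 0.05, and the fold criterion asked for a log2 fold change of 1 or more in size at an unadjusted p-value under 0.05. Of the 7 listed genes, 4 reached the filter, 1 lay below it and 2 had no values. At the adjusted p-value 0 of the 4 genes were called, where 0.0344% of all genes were. By the fold criterion 0 of the 4 genes passed, where 1.24% of all genes did. An unadjusted p-value below 0.05 from limma was reached by Oxct1 and Acat1, both lower, where 4.99% of all genes were lower at that level. The groups did not overlap, with the diabetic rats lower, for 3 of the 4 genes, against 8.42% of all genes. The median log2 fold change of the 4 genes was -0.33, and it was -0.021 over all genes tested. For 1 gene in 3 rats a group, the smallest p-value of the exact permutation test is 0.1.

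Bdh1, which encodes the mitochondrial beta-hydroxybutyrate dehydrogenase, is listed as ENSRNOG00000001736. Its values were 9.15, 8.46 and 8.30 FPKM in diabetic testes and 9.95, 8.07 and 7.65 FPKM in normal testes. The groups overlapped, and the normal rats held both the highest and the lowest value. This gives means of 8.64 ± 0.451 and 8.56 ± 1.22 FPKM (SD, n = 3 each). Its log2 fold change was 0.021 with a 95% interval from -0.25 to 0.29 (adjusted p = 0.985 from limma). Its sign changed with the rats included, since 3 of the 6 fits that left out 1 rat gave a value below 0.

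Bdh2, the cytosolic relative, is listed as ENSRNOG00000014490 and was scarce in every testis. Its level was 0.122, 0.403 and 0.228 FPKM in diabetic testes and 0.944, 0.363 and 0.590 FPKM in normal testes. The lowest normal rat lay between the diabetic rats, so the groups overlapped (exact permutation test, p = 0.2). Its mean over the 6 rats, 0.442 FPKM, kept it out of the test. Without the filter on low genes its log2 fold change was -1.06, with a 95% interval from -2.11 to -0.013. It then passed the fold criterion (unadjusted p = 0.0479 and adjusted p = 0.742 from limma), as did 621 of the 30782 genes tested in that fit.

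Oxct1, the gene of the CoA transferase that commits acetoacetate to oxidation, is listed as ENSRNOG00000043094. Its level was 2.96, 2.60 and 2.14 FPKM in diabetic testes and 3.22, 4.48 and 3.68 FPKM in normal testes. Every diabetic rat was below every normal rat, and the gap between the nearest rats was small beside the spread within either group. This gives means of 2.57 ± 0.410 and 3.80 ± 0.642 FPKM (SD, n = 3 each). On the log2 scale the difference was -0.55 (standard error 0.18) with a 95% interval from -0.96 to -0.13. The unadjusted p-value from limma was 0.0169, which placed the gene at rank 615 of the genes tested, and the adjusted p-value was 0.559 (exact permutation test, p = 0.1). A lower log2 fold change than that of Oxct1 was found for 5.48% of all genes.

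Acat1, which encodes the mitochondrial acetoacetyl-CoA thiolase, is listed as ENSRNOG00000007862. Its level was 5.73, 5.92 and 6.43 FPKM in diabetic testes and 7.06, 9.29 and 6.86 FPKM in normal testes. The groups did not overlap, and normal replicate 2 stood above the other 2 normal rats. This gives means of 6.03 ± 0.365 and 7.74 ± 1.35 FPKM (SD, n = 3 each). Its log2 fold change was -0.34 with a 95% interval from -0.66 to -0.028 (unadjusted p = 0.0367 and adjusted p = 0.649 from limma). Without normal replicate 2 it was -0.21, which is less by over 1.5 times.

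Aacs, the gene of the cytosolic acetoacetyl-CoA synthetase, is listed as ENSRNOG00000000967. Its level was 2.14, 2.30 and 1.73 FPKM in diabetic testes and 2.54, 2.64 and 2.54 FPKM in normal testes. The normal rats were close to each other, and all diabetic rats lay below them. This gives means of 2.06 ± 0.295 and 2.57 ± 0.0557 FPKM (SD, n = 3 each). On the log2 scale the difference was -0.32 with a 95% interval from -0.68 to 0.039 (unadjusted p = 0.0732 and adjusted p = 0.716 from limma). Without diabetic replicate 3, the lowest rat, it was -0.20.

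**Figure D2:**
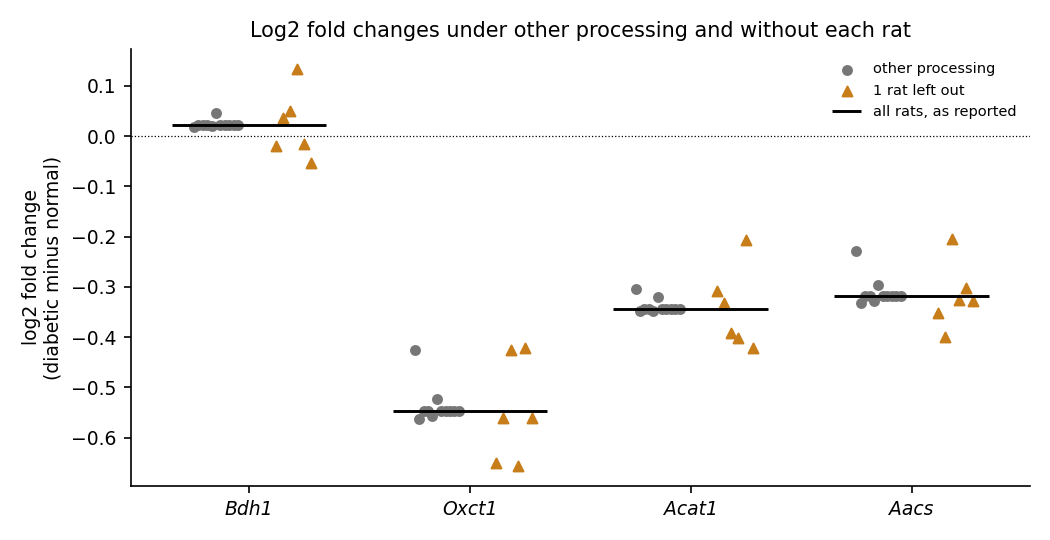
Log2 fold change (diabetic minus normal) of the 4 ketone body genes tested. The black line is the value from all 6 rats, circles are the other processing settings and triangles the fits that left out 1 rat each. Circles on the line are settings that could not change the log2 fold change. The symbols of Oxct1, Acat1 and Aacs stay below 0 in each of them, and those of Bdh1 lie on either side of 0.

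Across the 6 rats the log2 levels of Oxct1 and Aacs had a Pearson correlation of 0.878 and those of Oxct1 and Acat1 one of 0.761, while Bdh1 was at -0.21 with Oxct1. These are descriptions over 6 libraries that share the group difference. The same measure was taken over 14987 genes with a symbol and a mean of at least 1 FPKM. The gene most like Bdh1 was Yipf5 (r = 0.990), that of Oxct1 was Tex28 (0.994), that of Acat1 was Tmem43 (0.992) and that of Aacs was Stk10 (0.997). Each is the highest of 14987 correlations over only 6 rats, where values this high can arise without any relation, and none was tested.

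The genes around these steps were taken as 32 genes in 5 lists, of which 27 were tested, 2 lay below the filter and 3, Ogdh, Acaa1a and Scp2, were not analysed here. At the adjusted p-value 0 of the 27 genes were called, where 0.0344% of all genes were. The fold criterion was passed by 0 of them, where 1.24% of all genes passed it. In 5 of the 27 genes all diabetic rats lay below all normal rats, where 8.42% of all genes had this order. In 2 they lay above them, where 927 of all 20338 genes did. An unadjusted p-value below 0.05 from limma was reached by 4 of the 27 genes that were lower and 1 that was higher in the diabetic rats, where 4.99% of all genes were lower and 2.47% higher at that level. The median log2 fold change of the 27 genes was -0.017, against -0.021 over all genes tested.

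**Figure D3:**
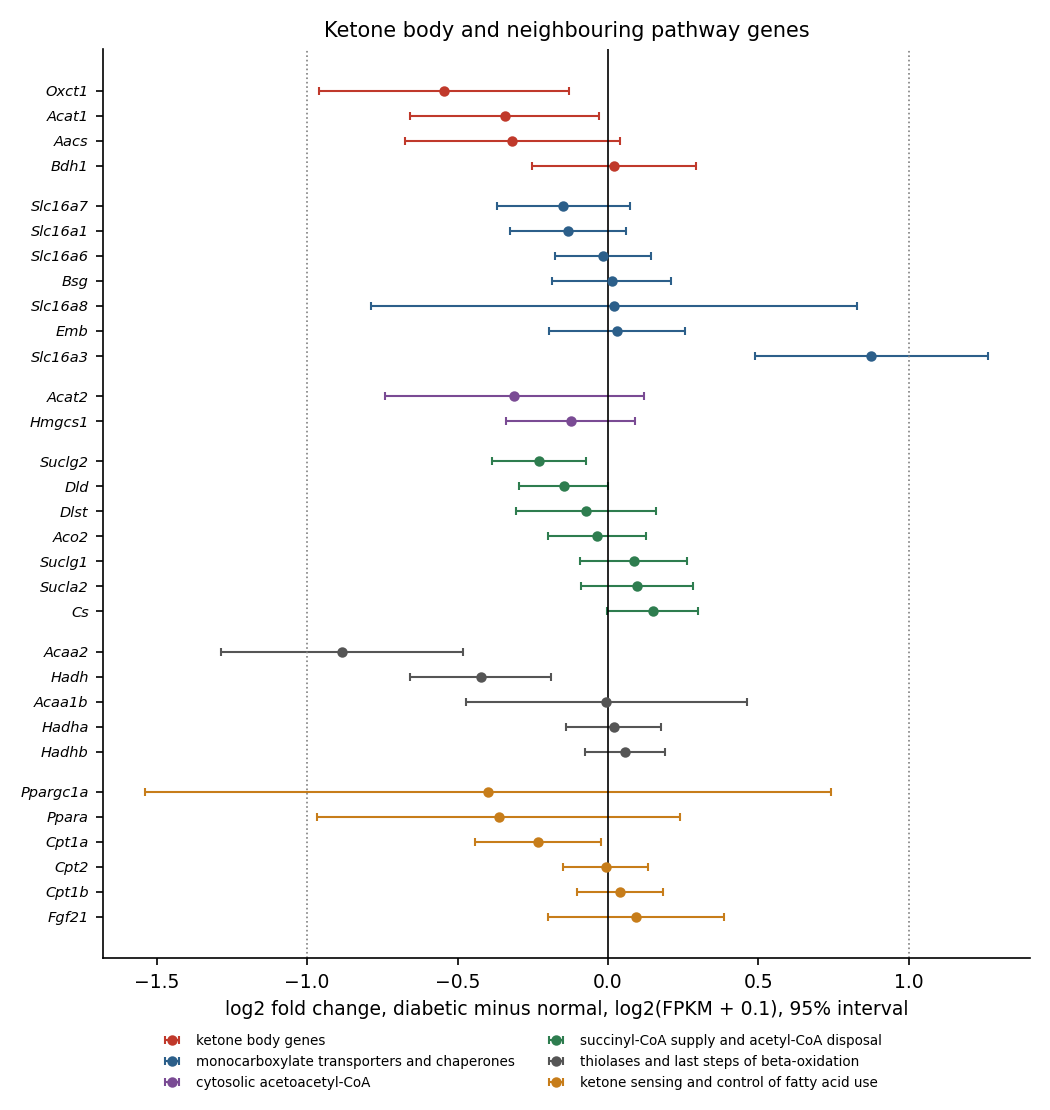
Log2 fold change (diabetic minus normal) of the ketone body genes and the pathway genes tested, with 95% intervals from limma, coloured by list. The solid line marks 0 and the dotted lines -1 and 1. The intervals of Acaa2 and Hadh lie well below 0 and that of Slc16a3 above it.

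Monocarboxylate transporters carry ketone bodies and lactate across cell membranes, and basigin (Bsg) and embigin (Emb) escort them to the surface. All 7 genes of this list were tested and 0 were called. The log2 fold change was above 0 for 4 of them, while 55.6% of all genes tested were below 0. Slc16a3, which encodes the transporter MCT4, was at 2.89, 3.29 and 2.43 FPKM in diabetic testes and 1.57, 1.38 and 1.58 FPKM in normal testes. Every diabetic rat lay above every normal rat. On the log2 scale the difference was 0.88 with a 95% interval from 0.49 to 1.26 (unadjusted p = 0.00101 and adjusted p = 0.273 from limma), and it was 0.62 with a pseudocount of 1. Bsg was the most abundant of the list, at 116.3 ± 2.75 FPKM in diabetic and 115.7 ± 13.0 FPKM in normal testes (SD, n = 3 each). Slc16a7, the gene of MCT2, had the lowest log2 fold change, -0.15, with groups that overlapped, and it was -0.049 without diabetic replicate 2.

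In the cytosol acetoacetyl-CoA is also made by ACAT2 and passed to HMGCS1 for cholesterol synthesis. Neither gene was called, and the groups overlapped for both. Hmgcs1 was at 29.7 ± 3.22 FPKM in diabetic and 32.2 ± 1.46 FPKM in normal testes (SD, n = 3 each), which is -0.12 on the log2 scale and -0.032 without diabetic replicate 2. Acat2 was at -0.31 on the log2 scale and at -0.18 without normal replicate 3. Any reads that it shares with the like-named gene Acat2l1 could have been assigned to either, which was not tested.

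OXCT1 draws on succinyl-CoA, and the acetyl-CoA that ACAT1 releases enters the citric acid cycle through citrate synthase. Of 8 genes of these steps 7 were tested and 0 were called. Suclg2, a subunit of the GTP-forming succinyl-CoA synthetase, had the lowest log2 fold change, -0.23. Its level was 14.2, 13.9 and 14.1 FPKM in diabetic testes and 15.8, 17.0 and 16.7 FPKM in normal testes, with groups that did not overlap (unadjusted p = 0.0105 and adjusted p = 0.506 from limma). Cs, the gene of citrate synthase, had the highest one, 0.15, at 69.9 ± 2.37 FPKM in diabetic and 63.1 ± 3.86 FPKM in normal testes (SD, n = 3 each). Its groups did not overlap either (adjusted p = 0.671 from limma). Sucla2, of the ATP-forming enzyme and the most abundant of the list, was at 120.7 ± 11.6 FPKM and 112.5 ± 4.03 FPKM (SD, n = 3 each), and its groups overlapped.

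Beta-oxidation supplies the acetyl-CoA for ketone bodies, and its last steps are run by hydroxyacyl-CoA dehydrogenases and thiolases. Of this list 5 of 7 genes were tested and 0 were called. Acaa2, the mitochondrial medium-chain thiolase, was at 9.35, 7.63 and 12.7 FPKM in diabetic testes and 17.6, 18.7 and 17.6 FPKM in normal testes. The diabetic rats were spread widely, and all lay below the tight group of normal rats. The log2 fold change was thus -0.89 with a 95% interval from -1.29 to -0.48 (unadjusted p = 0.00120 and adjusted p = 0.279 from limma). It was -1.08 without diabetic replicate 3, and Acaa2 then passed the fold criterion, as did 320 of the 20369 genes tested in that fit. Hadh, the short-chain hydroxyacyl-CoA dehydrogenase, was chosen for mention after its values were seen. Its level was 7.62, 7.59 and 8.41 FPKM in diabetic testes and 9.73, 11.8 and 10.3 FPKM in normal testes, without overlap. On the log2 scale the difference was -0.42 with a 95% interval from -0.66 to -0.19 (unadjusted p = 0.00354 and adjusted p = 0.404 from limma). Hadhb, the thiolase subunit of the trifunctional protein and the most abundant of the list, was at 161.0 ± 5.47 FPKM in diabetic and 154.8 ± 6.38 FPKM in normal testes (SD, n = 3 each), with overlapping groups.

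**Figure D4:**
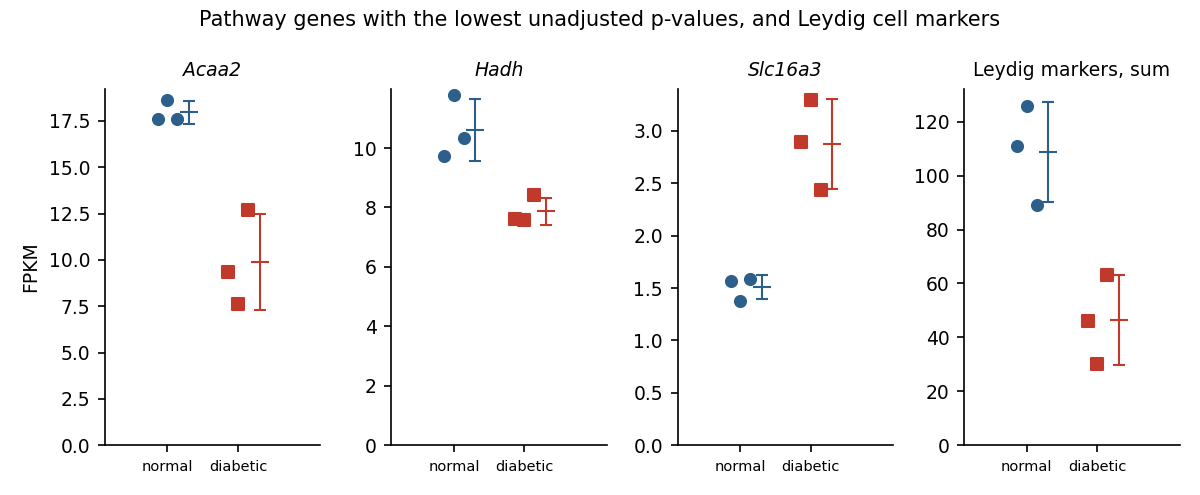
FPKM of the 3 pathway genes with the lowest unadjusted p-values and the summed FPKM of 6 Leydig cell markers, in each rat. Circles are normal and squares diabetic rats, the bars show the mean ± SD of 3 rats, and each axis starts at 0. The squares lie below the circles for Acaa2, Hadh and the Leydig sum, and above them for Slc16a3.

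Of the genes that sense ketone bodies or control the use of fat, 6 of 8 were tested and 0 were called. The receptors for beta-hydroxybutyrate and short-chain fatty acids were nearly absent. Hcar2 was listed at 0 in 3 of 6 rats and at no more than 0.212 FPKM in any, and Ffar3 was at 0.0332 to 0.149 FPKM. Ppargc1a, a coactivator of oxidative genes, had the lowest log2 fold change, -0.40, at 0.190 to 0.686 FPKM in diabetic and 0.392 to 0.884 FPKM in normal testes. Its groups overlapped (unadjusted p = 0.439 from limma), and the value rested on single rats, since it was 0.0046 without diabetic replicate 2 and -0.61 without normal replicate 2. Fgf21, a fasting hormone, had the highest, 0.095, with overlapping groups, but it was 0.0038 without normal replicate 3, below Cpt1b in the same fit at 0.011. Cpt1b, which admits fatty acids to mitochondria, was the most abundant, at 131.6 ± 6.71 FPKM and 128.0 ± 4.75 FPKM (SD, n = 3 each). Cpt1a was chosen for mention after its values were seen, as the 1 gene of this list whose groups did not overlap. Its level was 7.98, 7.52 and 7.94 FPKM in diabetic testes and 8.42, 9.74 and 9.48 FPKM in normal testes. On the log2 scale the difference was -0.23 (unadjusted p = 0.0343 and adjusted p = 0.649 from limma).

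The cell makeup of the libraries bears on these values, since a whole testis gives the sum over its cells, and fewer cells of a type and less RNA per cell cannot be told apart. The summed markers of spermatocytes and spermatids were high in every library. The summed FPKM of 6 spermatocyte markers was 348 to 402 in the diabetic and 362 to 408 in the normal rats. That of 7 Sertoli cell markers was 55.3 to 56.7 and 50.2 to 57.3. Most of the Sertoli sum was Cldn11, at 33.39 FPKM and 34.15 FPKM on average. Of the 6 Sertoli markers tested, 1 had a negative log2 fold change, and the diabetic rats of Wt1 all lay above the normal rats (0.15). That order was found in 927 of all 20338 genes tested. The 6 spermatogonial markers summed to 57.4 to 68.7 FPKM in diabetic and 53.4 to 57.3 FPKM in normal testes. Most of that sum was Uchl1, at 47.5 FPKM and 37.3 FPKM on average. A negative log2 fold change was found for 4 of the 6, against 55.6% of all genes tested. Among them was Kit, whose diabetic rats all lay below the normal rats (-0.30), an order that 8.42% of all genes tested had. The 6 Leydig cell markers had lower means in the diabetic rats, as did Oxct1, Acat1 and Aacs. They summed to 30.1 to 63.3 FPKM in diabetic and 89.0 to 126 FPKM in normal testes. All 6 had a negative log2 fold change, against 55.6% of all genes tested, and none was at 0. Of the 6, Cyp17a1, which encodes a steroid hydroxylase, was called as lower, by -1.60 on the log2 scale (adjusted p = 0.0415 from limma, 0.00511 to 0.186 over its alternatives). The call was lost without any 1 of diabetic replicates 1, 2 and 3, at adjusted p = 0.122, 0.125 and 0.107, and without normal replicate 3, at 0.147 from limma. The 5 macrophage markers summed to 25.6 to 30.8 FPKM in diabetic and 30.4 to 31.9 FPKM in normal testes. Most of this was Mrc1, at 20.8 FPKM and 21.6 FPKM on average. All 5 had a negative log2 fold change, against 55.6% of all genes tested. For Csf1r (-0.80) and Cd68 (-0.98) the diabetic rats all lay below the normal rats, as in 8.42% of all genes tested. Their means were 44.2% and 53.6% lower. The 3 endothelial markers summed to 4.12 to 4.81 and 4.73 to 5.44 FPKM. The part of Leydig cells or of other somatic cells in the lower values of Oxct1, Acat1, Aacs, Acaa2 and Hadh was not tested. Markers of the epididymis summed to at most 0.170 FPKM. The summed markers of round spermatids, elongating spermatids and peritubular cells overlapped between the groups, at 560 to 664, 11600 to 13900 and 70.3 to 91.2 FPKM over all rats.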

How the data were processed

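Total RNA of testis was sequenced in 3 diabetic and 3 normal rats. The authors compared the reads with rRNA sequences using BWA, aligned them with STAR, assembled transcripts with StringTie and deposited FPKM for 35291 genes. Tool versions and the genome build are not given in the sources used here. Their screen with DESeq2 needs counts and was not repeated. The labels do not say that the rats of a group came from separate cages or litters, so p-values measure the spread between these samples.

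Genes were kept where the mean reached 0.5 FPKM, 0.1 was added before the log2, and groups were compared with limma 3.58.1 (lmFit, eBayes with a trend) in R 4.3.3. Single genes were also compared by an exact permutation test. The steps were run on simulated data to check the code, and their power for differences as small as those reported here was not tested. The depth in reads is unknown. Relative depth, read from the commonest ratio between libraries at genes below 1 FPKM, was 0.966 to 1.09 in diabetic and 0.893 to 1.02 in normal rats, against a mean of 1. The column totals were 453304 to 478211 FPKM. Correlations of log2 values were 0.958 to 0.965 within and 0.957 to 0.966 between groups.

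The members, lists and tests were chosen with earlier results of these data known. The text names every member, pathway genes called, and in each of 5 pathway lists the most abundant gene and those with the highest and lowest log2 fold change. It also names the gene most correlated with each member. Alternatives changed the pseudocount, filter, scaling, eBayes settings, replicate block, genes tested and rats included. A further pathway list is not reported here. Protein-coding genes came from RefSeq (GRCr8), whose symbols matched 17294 genes.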

Additional observations from a re-analysis of the deposited data

How the results depend on the processing

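Of 68 fits of the 4 ketone body genes under 17 alternatives each, 65 kept the sign and 0 gave an adjusted p-value below 0.05, with a range of 0.294 to 0.995 from limma. Settings of the filter, eBayes, replicate block, genes tested and summed symbols left the log2 fold changes of these genes as they were. The sign could not differ in those fits, and only the p-values could. The 3 fits with another sign were all of Bdh1, whose log2 fold change ran from -0.054 to 0.13 when each rat was left out. In such fits that of Oxct1 ran from -0.66 to -0.42, of Acat1 from -0.42 to -0.21 and of Aacs from -0.40 to -0.20. Without the filter on low genes the fold criterion was passed by 1 ketone body gene, Bdh2, which entered only there. The pathway genes past the fold criterion numbered 0 to 1 when each rat was left out. Over all genes tested in those fits, 246 of 20291 (without normal replicate 2) to 335 of 20290 (without normal replicate 1) passed it. Over all genes, 253 of 20338 tested were past the fold criterion. This became 91 with a pseudocount of 1, 621 of 30782 without a filter and 85 of 12242 among protein-coding genes. The 7 with an adjusted p-value below 0.05 became 3 without a filter, 4 with the block, 12 without the trend, 15 with same symbols summed, 36 among protein-coding genes and 0 to 14 when each rat was left out. The causes were not tested. The replicate numbers were not taken to pair the rats. The deviations of same-numbered rats from their group means had correlations of 0.106, 0.0153 and 0.0979, which were not all above 0.1. As a hint from the data towards pairing, 4 of 6 rats were closest to their own number by these deviations. With the replicate block 0 ketone body genes were called (adjusted p = 0.561 from limma for Oxct1), and it changed no call of the ketone body or pathway genes, while the adjusted p of the Leydig cell marker Cyp17a1 became 0.186 with it, 0.0788 without a filter and 0.0909 without the trend.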

Other observations

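The order of the diabetic rats was the same for the summed Leydig cell markers and for Acaa2. Diabetic replicates 2, 1 and 3 had summed Leydig markers of 30.1, 46.0 and 63.3 FPKM and Acaa2 at 7.63, 9.35 and 12.7 FPKM. Hadh had this order as well, though replicates 2 and 1 were nearly equal at 7.59 and 7.62 FPKM. In the normal rats the summed markers were lowest in replicate 3, at 89.0 FPKM, but Hadh in replicate 1, at 9.73 FPKM. Acaa2 was lowest in normal replicate 3, at 17.6 FPKM against 17.63 FPKM in normal replicate 1. Among the diabetic rats the order differed for Oxct1 and Aacs, with replicate 3 the lowest at 2.14 and 1.73 FPKM. It also differed for Acat1, with replicate 1 the lowest at 5.73 FPKM, and for Insl3 and Lhcgr among the Leydig markers. These orders rest on 3 rats a group, where the same order can easily arise without any relation. They were seen after the values, and no relation was tested.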
